A study of Mus musculus with 20 samples.

Results

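The adenylyl cyclases Adcy1 to Adcy9 are the membrane-bound enzymes that make cyclic AMP (cAMP) from ATP. All 9 gene symbols were found, each on 1 probe set that carries no other symbol, among 28767 probe sets on the array. RNA was measured in the left and right amygdalae of 20 male mice, labelled C57BL/6 (C57BL/6J in the study's methods) and aged 7 months, with 1 mouse on each array and 5 mice in each of 4 groups. All mice descended from parents heterozygous for the knockout of the serotonin transporter 5-HTT, lived in single housing and had passed an elevated plus-maze test before the treatment. In WT con, wildtype mice stayed in the home cage for 1 min, and in WT stress, wildtype mice spent 1 min in water of 22°C. KO con and KO stress are knockout mice in the same conditions. The knockout is constitutive, so the transporter is missing from all tissues and from development on, and each tissue sample is a bulk dissection. In such tissue, fewer cells of a type and less RNA per cell cannot be told apart.

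The values are log2 signals as deposited by the authors, so a difference of 1 is a doubling of signal. Array medians ranged from 6.59 to 6.82 and pairs of arrays correlated at 0.948 to 0.996. Slc6a4, the gene of 5-HTT (GRCm38.p6, chromosome 11, 76998597 to 77032343), read 8.10 to 8.38 in the 10 arrays labelled KO and 5.82 to 7.82 in the 10 labelled WT. The transporter transcript signal was thus higher under the KO label, and the sources used here do not give the position of its probes relative to the deleted part. WT and KO below mean the arrays so labelled. Of the markers of striatal and central amygdala neurons, 13 of 13 lay above the median probe set of the array (6.72), as did 8 of 10 markers of pallial excitatory neurons, the class that fills the basolateral amygdala. So did 6 of 8 markers of thalamic neurons and 7 of 10 of choroid plexus, tissues next to the dissected region. WT stress replicates 4 and 5 stood apart from the other arrays in markers of dentate gyrus granule cells, with values given beside Adcy1 and Adcy9.

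Adenylyl cyclases are switched on by receptors that couple to Gs or Golf and restrained, for several members, by receptors that couple to Gi. The cAMP they form activates protein kinase A and cAMP-gated exchange factors until phosphodiesterases break it down. In the amygdala, cAMP signalling in projection neurons is known for its part in synaptic plasticity and fear learning. Members differ in what else regulates them. Adcy1, Adcy3 and Adcy8 are stimulated by calcium and calmodulin, Adcy2, Adcy4 and Adcy7 by G protein beta-gamma subunits, Adcy5 and Adcy6 are inhibited by calcium, and Adcy9 hardly responds to forskolin.

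The promoters of Adcy1 and Adcy9 are shown because these members had the closest array-to-array variation of the family and carried its largest group differences. Each run gives 250 bases before and 50 bases from the transcript start of RefSeq on GRCm38.p6, 5′ to 3′ on the gene's strand. Adcy1 is at chr11:7063183-7063482 on the plus strand and Adcy9 at chr16:4420449-4420748 on the minus strand, where this start lies inside the annotated gene. Capitals mark the GC box (GGGCGG or its other-strand form CCGCCC) and the core of the cAMP response element (TGACG or CGTCA), and adjoining matches run together.
Adcy1: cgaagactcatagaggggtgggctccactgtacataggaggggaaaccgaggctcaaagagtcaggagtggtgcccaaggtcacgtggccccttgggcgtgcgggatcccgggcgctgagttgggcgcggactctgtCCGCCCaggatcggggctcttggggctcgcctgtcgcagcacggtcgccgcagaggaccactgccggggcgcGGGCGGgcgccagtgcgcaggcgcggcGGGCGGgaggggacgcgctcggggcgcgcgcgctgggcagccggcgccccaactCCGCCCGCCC
Adcy9: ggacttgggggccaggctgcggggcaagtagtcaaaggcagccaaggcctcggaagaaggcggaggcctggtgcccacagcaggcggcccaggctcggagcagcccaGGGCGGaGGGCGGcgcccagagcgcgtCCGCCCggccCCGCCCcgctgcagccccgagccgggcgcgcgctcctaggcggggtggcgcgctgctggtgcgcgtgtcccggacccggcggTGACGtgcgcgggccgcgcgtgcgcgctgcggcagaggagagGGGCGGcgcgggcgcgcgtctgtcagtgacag
The Adcy1 window holds 5 GC boxes, 2 of which overlap at its end, and no cAMP response element core. The Adcy9 window holds 5 GC boxes and 1 core, which starts 24 bases before the transcript start. The reference table has 10 promoter windows of 7 members (Adcy3 has 2 and Adcy7 has 3), and it has none for Adcy6 and Adcy8. A GC box was present in 6 of the 10 windows, against 35.7% of all 32851 windows in the table. The core was present in 2 of 10 (Adcy7 and Adcy9), against 20.8% of all windows. The whole element TGACGTCA, held by 1.79% of all windows, was in 0 of the 10, and so was the TATA box (TATAAA or TTTATA), held by 13.6%. The CCAAT box (CCAAT or ATTGG) was in 3 of 10, against 37.4%. GC content was 74.0% for Adcy1, 78.3% for Adcy9 and 79.0% for Adcy5, against a median of 52.7%. The 3 windows of Adcy7 held 54.7% to 57.0%. These are counts of letters in a window and say nothing of binding.

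Adcy9 was higher in WT stress than in WT con, and lower in KO stress than in WT stress. Its gene lies on chromosome 16 (4284886 to 4437236). The log2 values were 8.01, 7.96, 8.17, 8.15 and 8.0 in WT con and 8.27, 8.14, 8.17, 8.82 and 8.50 in WT stress. They were 8.29, 8.06, 8.17, 8.08 and 8.08 in KO con and 7.97, 8.06, 8.10, 8.12 and 8.14 in KO stress. WT stress replicates 4 and 5 were the highest of all 20 arrays, and the other arrays spanned 7.96 to 8.29. The difference between WT stress and WT con was 0.32 ± 0.10 (SE, 95% interval 0.11 to 0.53, 5 mice per group), a 1.25-fold higher signal with 3 of 5 stressed mice above all controls. Its unadjusted p was 0.00441 in limma and 0.0397 in the two-sided exact permutation test, and the adjusted p over all probe sets was 1.0. Adcy9 was the only 1 of the 9 members past the unadjusted level of 0.05, a level that 3.54% of all probe sets passed in this comparison.

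Between KO stress and WT stress, Adcy9 differed by -0.30 ± 0.10 (SE, 95% interval -0.51 to -0.09), with all 5 KO stress arrays at or below 8.14 and all 5 WT stress arrays above them. The gap between the groups was under the second decimal. The exact permutation p was 0.00794, the smallest that 5 against 5 arrays allow, the unadjusted p in limma was 0.00693 and the adjusted p was 0.53. Again it was the only 1 of 9 members at that level, which 9.28% of probe sets passed, while 1.02% of probe sets had groups that did not overlap. The change with stress differed between genotypes by -0.38 ± 0.14 (KO minus WT), with an unadjusted p of 0.014 in limma and an adjusted p of 1.0. In that test of the interaction 1 of 9 members and 2.52% of probe sets passed the level. These 3 comparisons share the WT stress arrays and are not independent of each other. Within KO mice the stress difference was -0.06 ± 0.10, and between the unstressed genotypes it was 0.08 ± 0.10. The order of the group means was WT con (8.06), KO stress (8.08), KO con (8.14) and WT stress (8.38), and only the last step, 0.24, exceeded the pooled SD (0.21) of its neighbours.

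Adcy1, on chromosome 11 (7063433 to 7178506), had the widest spread of the family. This calmodulin-stimulated cyclase of neurons read 9.25, 8.96, 9.23, 9.17 and 9.02 in WT con. In WT stress it read 9.71, 8.49, 8.62, 10.98 and 10.78. Of these arrays 3 were above and 2 were below all of WT con, so that stressed wildtype mice lay on both sides of a narrow control group. The values were 9.52, 8.32, 9.24, 8.90 and 8.82 in KO con and 8.18, 9.02, 8.94, 9.42 and 9.08 in KO stress. The SD of Adcy1 was 1.16 in WT stress, 0.13 in WT con, 0.45 in KO con and 0.46 in KO stress. The mean difference of WT stress from WT con was 0.59 ± 0.40 (SE, 95% interval -0.25 to 1.43), with an unadjusted p of 0.157 in limma and an exact permutation p of 0.317. The difference of KO stress from WT stress was -0.79 ± 0.40 (95% interval -1.62 to 0.05), with an unadjusted p of 0.0639 in limma and an adjusted p of 0.53. Neither passed the level of 0.05. Leaving out WT stress replicate 2 or 3 brought the former to 0.89 or 0.86 (unadjusted p 0.0286 and 0.0396 in limma). Leaving out either of them, or KO stress replicate 4, brought the latter to -1.09, -1.06 and -0.91, all past 0.05 before adjustment.

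**Figure D1:**
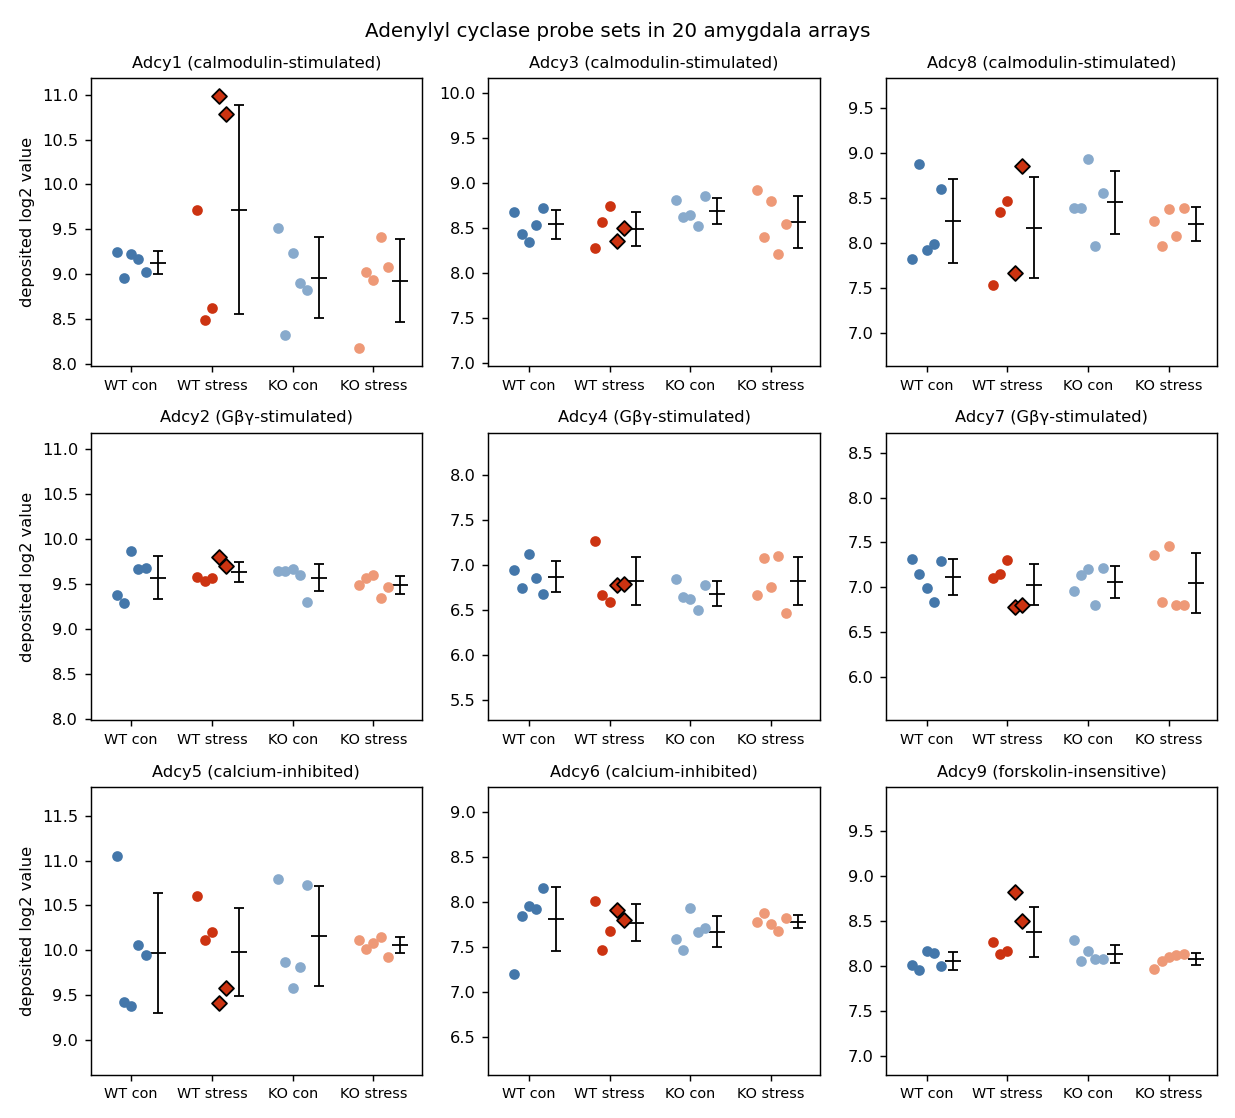
Deposited log2 value (vertical axis) of each of the 9 adenylyl cyclases in the 5 arrays of each group (points, replicate 1 to 5 from left to right), with the group mean ± SD in black beside them. All panels span the same log2 range, and diamonds are WT stress replicates 4 and 5, which are the highest arrays for Adcy1 (10.98 and 10.78) and Adcy9 (8.82 and 8.50).

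The arrays with the highest Adcy1 and Adcy9 were also those with the highest markers of dentate gyrus granule cells, a hippocampal cell type outside the amygdala. This list of 12 genes was drawn up after the data were seen. In 7 of the 12 genes both WT stress replicates 4 and 5 lay above all the other 18 arrays. Dsp read 8.77 and 8.41 in them and at most 6.40 elsewhere, Lct 9.05 and 8.92 and at most 6.62 elsewhere, and C1ql2 8.79 and 8.59 and at most 8.18 elsewhere. The score of the list, its mean log2 value relative to the mean of each gene over all arrays, was 1.14 and 1.16 in these arrays. It ranged from -0.31 to -0.17 in the other WT stress arrays, from -0.22 to 0.18 in WT con, from -0.29 to -0.02 in KO con and from -0.25 to 0.21 in KO stress. Markers of pallial excitatory neurons were highest there too, at scores of 1.17 and 0.98 against at most 0.69 elsewhere. Scores were the lowest of all 20 arrays for striatal and central amygdala neurons, at -0.78 and -0.96, and for hypothalamic and medial amygdala neurons, at -0.73 and -0.57. The choroid plexus score was 2.70 in replicate 4, the highest of all arrays, and -0.67 in replicate 5.

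Without WT stress replicates 4 and 5, Adcy1 differed between WT stress and WT con by -0.19 ± 0.30 (unadjusted p 0.54 in limma), the opposite sign, and between KO stress and WT stress by -0.01 ± 0.30. Adcy9 then differed by 0.14 ± 0.07 between WT stress and WT con (unadjusted p 0.0579 in limma) and by -0.12 ± 0.07 between KO stress and WT stress (0.101), which no longer passed the level. Its interaction was -0.20 ± 0.09 (unadjusted p 0.0422 in limma). Of all 28767 probe sets, 638 were then higher and 1806 lower in the interaction at the unadjusted level, against 202 and 522 with all arrays. Leaving out any single array, in contrast, kept all 3 of these differences of Adcy9 past the unadjusted level, with largest p of 0.0134, 0.02 and 0.0289 in limma. The part of dentate gyrus or of these other tissues in the Adcy1 and Adcy9 values was not tested.

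**Figure D2:**
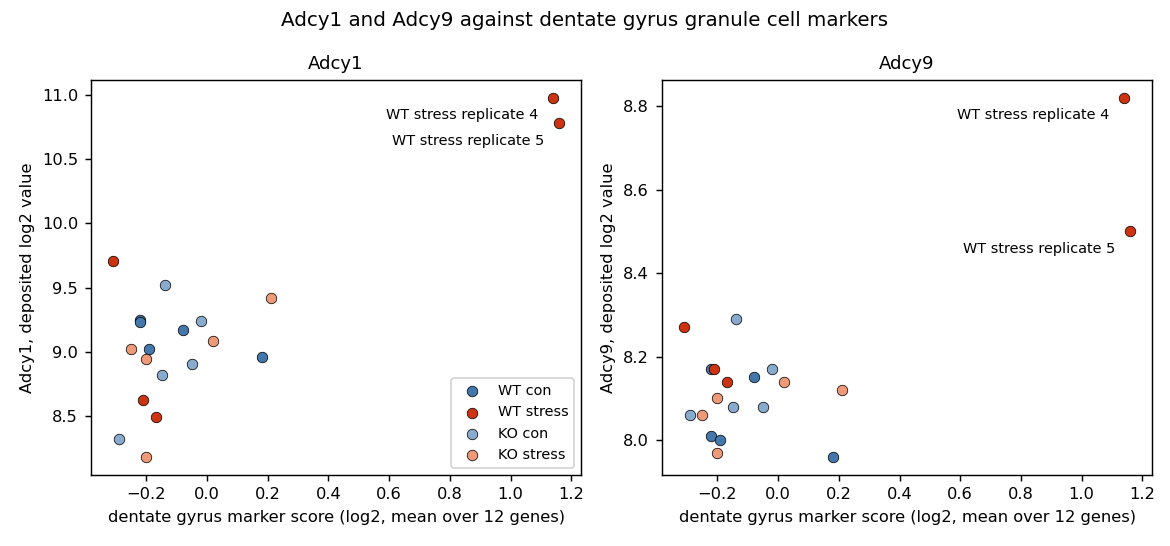
Adcy1 (left) and Adcy9 (right), as deposited log2 values on the vertical axis, against the score of 12 dentate gyrus marker genes in log2 units, with 1 point per array coloured by group. WT stress replicates 4 and 5 lie apart from the other 18 arrays at scores of 1.14 and 1.16 with the highest value of both genes.

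The other calmodulin-stimulated cyclases showed no group difference beyond the spread of the mice. Adcy8, expressed in neurons and involved in calcium-driven plasticity, lies on chromosome 15 (64699035 to 64922296). Its values ranged from 7.82 to 8.88 in WT con, 7.53 to 8.85 in WT stress, 7.97 to 8.93 in KO con and 7.96 to 8.39 in KO stress, and all groups overlapped. Its largest difference was -0.24 ± 0.25 between KO stress and KO con (95% interval -0.76 to 0.28). Adcy3, the cyclase of olfactory neurons and of primary cilia, lies on chromosome 12 (4133116 to 4213525). Its means in WT mice were 8.54 ± 0.16 (SD, n = 5) at rest and 8.49 ± 0.19 after stress, and in KO mice 8.69 ± 0.14 and 8.57 ± 0.29. The largest difference was 0.15 ± 0.12 between KO con and WT con (95% interval -0.11 to 0.41).

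Among the cyclases stimulated by beta-gamma subunits, Adcy2 had the narrowest range of the family, 9.29 to 9.87 over all arrays. Adcy2, a brain cyclase on chromosome 13 (68620043 to 68999600), differed most between KO stress and WT stress, by -0.14 ± 0.10 (95% interval -0.35 to 0.07), with 3 of 5 KO stress arrays below all of WT stress and an exact permutation p of 0.0714. Adcy4 lies on chromosome 14 (55769056 to 55784095) and read 6.47 to 7.27 over all arrays. Its largest difference was -0.19 ± 0.13 between KO con and WT con (95% interval -0.47 to 0.09), with 3 of 5 KO con arrays below all of WT con and an exact permutation p of 0.0952. Adcy7, a cyclase that blood cells and microglia also use, lies on chromosome 8 (88272190 to 88329965) and read 6.78 to 7.46. Its differences ran from -0.09 ± 0.15 between WT stress and WT con to 0.02 ± 0.15 between KO stress and WT stress.

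Adcy5 and Adcy6 are the calcium-inhibited members, and Adcy5 is the main cyclase of striatal projection neurons. Adcy5, on chromosome 16 (35154494 to 35305743), read 11.05, 9.43, 9.38, 10.06 and 9.95 in WT con and 10.61, 10.12, 10.20, 9.41 and 9.58 in WT stress. It read 10.79, 9.87, 9.58, 9.81 and 10.73 in KO con, while the KO stress values were close together, 9.93 to 10.15. Single mice of the other groups lay on both sides of that narrow range. None of its 4 differences exceeded 0.18 ± 0.30, the value for KO con against WT con (95% interval -0.45 to 0.81). Adcy6, on chromosome 15 (98589978 to 98610287), read 7.20 to 8.15 in WT con and 7.68 to 7.88 in KO stress. Its largest difference, -0.14 ± 0.14 between KO con and WT con, was not past the level (unadjusted p 0.332 in limma). Without WT con replicate 1, the lowest array of Adcy6 at 7.20, this difference became -0.29 with an unadjusted p of 0.012 in limma, and the interaction became 0.30 with an unadjusted p of 0.0478.

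Over the whole family, 0 of 9 members passed the unadjusted level between KO stress and KO con, which 1.13% of probe sets passed, and 0 of 9 between KO con and WT con, which 3.57% passed. Averaged over genotypes, 0 of 9 members differed with stress at that level (1.67% of probe sets), and averaged over conditions, 0 of 9 differed between genotypes (12% of probe sets). With Benjamini-Hochberg adjustment in limma the count was 0 of 9 in all 7 comparisons, and the criterion of the study's methods, a fold above 1.5 together with an unadjusted p under 0.05, also gave 0 of 9 in each. The adjusted level was passed by 0.00348% of all probe sets (1 probe set) between KO stress and WT stress and between the genotypes averaged over conditions, and by 0.0% in the other comparisons. The fold criterion was met by 0.24% of probe sets between WT stress and WT con, 0.139% between KO stress and KO con, 0.0487% between KO con and WT con and 0.768% between KO stress and WT stress. It was met by 0.591% in the interaction, 0.0556% for stress averaged over genotypes and 0.139% for genotype averaged over conditions. Groups that did not overlap were found in 0.257% of probe sets between WT stress and WT con, 0.289% between KO stress and KO con and 0.855% between KO con and WT con. The median difference of the members was -0.04 between WT stress and WT con (0.03 for all probe sets), -0.06 between KO stress and KO con, -0.01 between KO con and WT con and 0.01 between KO stress and WT stress (-0.03 for all probe sets). Of the 27 steps between neighbouring group means, 26 were within 1 pooled SD of the arrays.

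**Figure D3:**
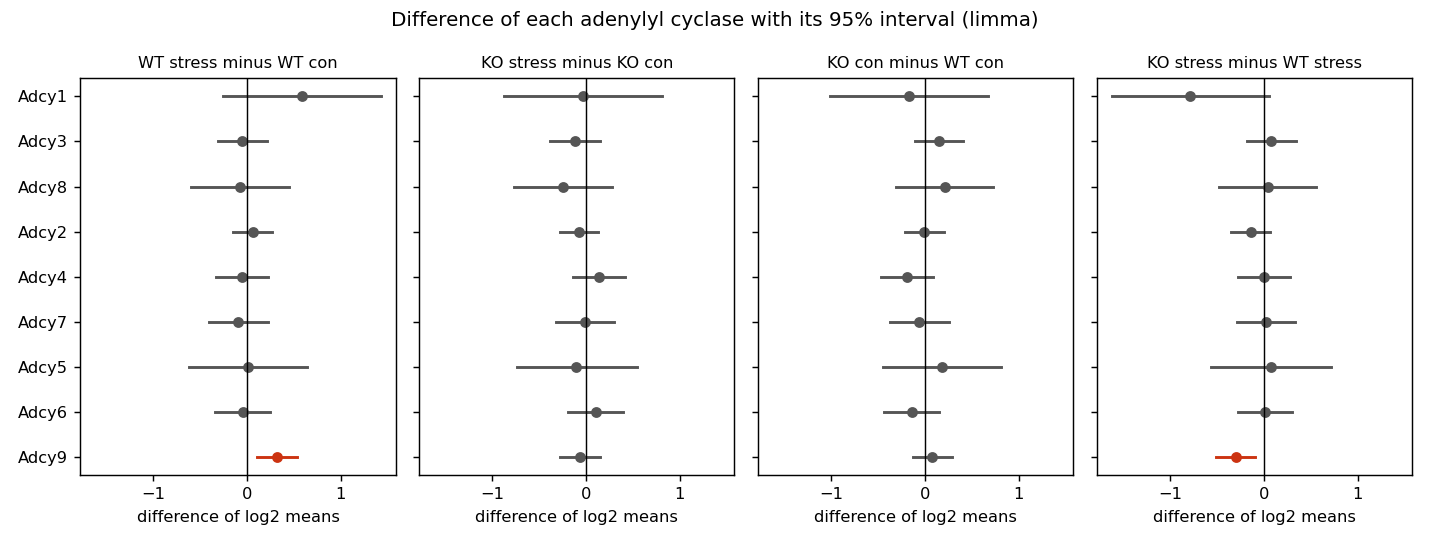
Difference of log2 group means (horizontal axis, points) with its 95% interval from limma (lines) for the 9 members in the 4 comparisons of 2 groups. Red marks an unadjusted p under 0.05, which only Adcy9 reached, at 0.32 for WT stress minus WT con and -0.30 for KO stress minus WT stress, while the intervals of the other 8 members include 0.

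With the group means removed, 4 of the 36 pairs of members were correlated over the mice past an adjusted p of 0.05, 3 positively and 1 negatively. Correlations are over 20 arrays, with a permutation test within groups and adjustment over the 36 pairs of members. Adcy1 and Adcy9 had the highest correlation, r = 0.87 (rho = 0.91, permutation p 1e-05, the smallest that these permutations can give, adjusted p 0.00036). Without WT stress replicates 4 and 5, which are also the arrays farthest from the median of Adcy1, it was 0.75 (adjusted p 0.00684). Adcy3 and Adcy7 followed with r = 0.72 (rho = 0.70, permutation p 0.00534, adjusted p 0.0481), and r = 0.65 without the 2 arrays farthest from the median of Adcy3. Adcy9 correlated with Adcy7 at r = -0.57 (rho = -0.57, permutation p 0.00415) and with Adcy2 at r = 0.53 (rho = 0.53, permutation p 0.00525), both with an adjusted p of 0.0481. In these last pairs r was -0.69 and 0.55 without the 2 farthest arrays of Adcy7 and Adcy2. Without the least correlated arrays, WT con replicate 1 and WT stress replicate 1, both had an adjusted p of 0.13, and Adcy3 with Adcy7 had 0.0416. For rho the adjusted permutation p was 0.0961 for Adcy3 with Adcy7 and for Adcy7 with Adcy9. It was 0.16 for Adcy2 with Adcy9, so these 3 pairs passed for r and not for rho. Leaving out WT stress replicates 4 and 5, 1 pair (Adcy1 with Adcy9) passed the adjusted level in place of 4. Adcy1 and Adcy7 had r = -0.59 (rho = -0.50, permutation p 0.00912, adjusted p 0.0657), and 17 of the 36 pairs had a positive sign.

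Some members also moved with markers of neuron classes that are unevenly spread through the amygdala and its borders, and Adcy4 with meningeal markers. Of 108 pairs of a member with 1 of 12 marker scores, 7 passed an adjusted p of 0.05. Adcy1 and Adcy9 followed the score of pallial excitatory neurons, with r = 0.91 (rho = 0.79, permutation p 0.00022, adjusted p 0.00792) and r = 0.83 (rho = 0.79, permutation p 0.0001, adjusted p 0.0054). Without WT stress replicates 4 and 5 these were 0.83 (adjusted p 0.027) and 0.74 (adjusted p 0.0358). With the dentate gyrus score, r was 0.79 for Adcy1 and 0.75 for Adcy9 with all arrays (adjusted p over 9 members 0.108 for both). It was 0.22 and 0.03 without WT stress replicates 4 and 5. That list was drawn up after the data were seen, and its score was 1.14 and 1.16 in these arrays and at most 0.21 elsewhere. A fall of r without them was thus built in and does not tell the pallial and dentate gyrus scores apart. Markers of hypothalamic and medial amygdala neurons ran opposite to Adcy1 (r = -0.78, rho = -0.80, permutation p 2e-05, adjusted p 0.00216). They ran with Adcy7 (r = 0.84, rho = 0.79, permutation p 0.00031, adjusted p 0.00837) and Adcy3 (r = 0.77, rho = 0.73, permutation p 0.00248, adjusted p 0.0383). Adcy8 followed the thalamic score (r = 0.76, rho = 0.69, permutation p 0.00041, adjusted p 0.00886), which was highest in WT con replicate 2 at 1.44. Adcy4 followed markers of meninges and fibroblasts (r = 0.75, rho = 0.76, permutation p 0.00095, adjusted p 0.0171). Adcy5 had r = 0.69 with the striatal and central amygdala score, which did not pass. All 7 relations kept an adjusted p under 0.05 without WT stress replicates 4 and 5, and r was between 0.69 and 0.83 in size without the 2 arrays farthest from the median of the member.

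**Figure D4:**
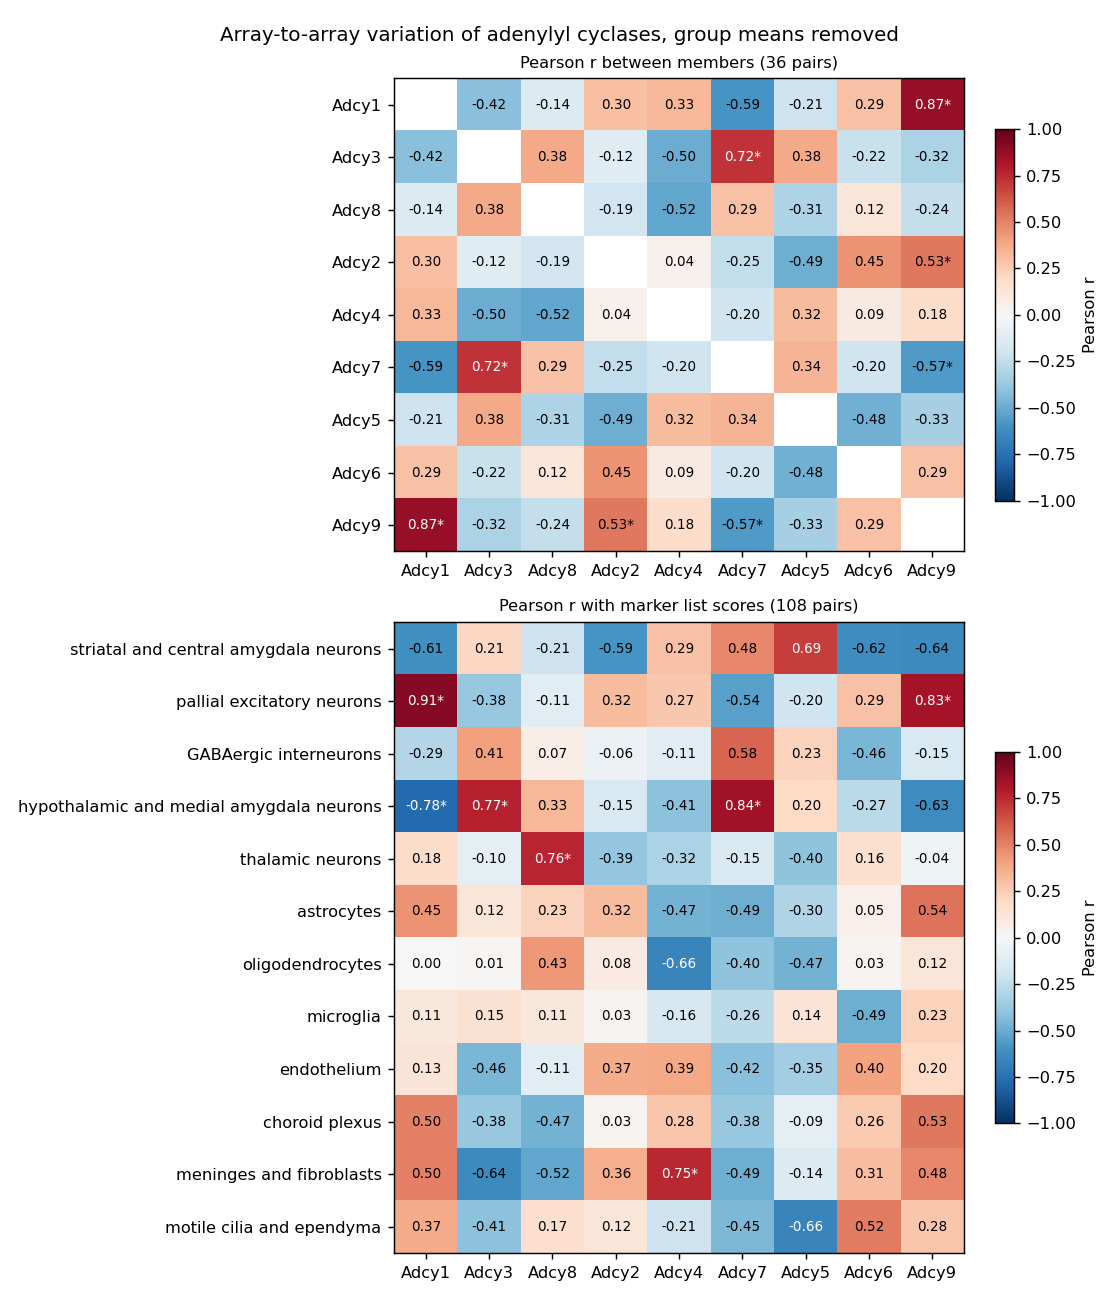
Pearson r over 20 arrays, group means removed, between the 9 members (upper panel) and between members and the scores of 12 marker lists (lower panel), with red for positive and blue for negative values. An asterisk marks an adjusted p under 0.05, as for Adcy1 with Adcy9 (0.87), for Adcy1 with pallial excitatory neurons (0.91) and for Adcy7 with hypothalamic and medial amygdala neurons (0.84).

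The probe sets whose array-to-array pattern was most like that of a member, over 20 arrays and with group means removed, were Zbtb18 (r = 0.94) and Enc1 (0.93) for Adcy1 and Enc1 (0.90) and Rcor2 (0.90) for Adcy9. Without WT stress replicates 4 and 5 these were 0.83 and 0.83, and 0.80 and 0.67. For Adcy8 they were Inpp4b (0.93) and Arhgap24 (0.93), for Adcy3 Atp8a1 (0.90) and Gpld1 (0.89), and for Adcy7 Gpr45 (0.92) and Oxt (0.87), the gene of oxytocin. For Adcy4 they were Alx4 (0.93) and Kank2 (0.89), for Adcy5 Strn (0.91) and Pde1b (0.88), and for Adcy6 Aifm3 (0.89) and Shpk (0.88). Adcy2 had the least close pair, Tmem178 (0.79) and Grhl3 (0.72). These genes were picked as the highest of all probe sets, so their r is a description.

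Around the cyclases, 110 of 121 listed genes of cAMP signalling were measured with a single symbol. Between WT stress and WT con 7 of the 110 passed the unadjusted level (6.36%, against 3.54% of all probe sets), 3 higher and 4 lower. Of all 28767 probe sets, 859 were higher and 160 lower at this level. Among receptors, Vipr1, a Gs-coupled receptor of vasoactive intestinal peptide, was higher by 0.54 ± 0.20 (SE) and Npy1r, the Gi-coupled Y1 receptor of neuropeptide Y, by 0.47 ± 0.20. Group means of Vipr1 ran from 6.06 in WT con to 6.61 in WT stress, all below the median probe set of the array (6.72). Adcyap1r1, the receptor of PACAP that couples to Gs, was lower, 9.77 ± 0.15 (SD) in WT stress and 10.03 ± 0.10 in WT con. All 5 stressed arrays lay below all controls (exact permutation p 0.00794), and 0.257% of all probe sets had groups that did not overlap in this comparison. Oprl1, the Gi-coupled nociceptin receptor, differed by -0.35 ± 0.15. Of protein kinase A genes, the inhibitor Pkig was higher by 0.26 ± 0.11 and the catalytic subunit Prkacb differed by -0.20 ± 0.09, and the gamma subunit Gng4 differed by -0.49 ± 0.21. None passed after adjustment in limma. The count ran from 1 without WT con replicate 4 to 20 without WT con replicate 1. Without WT stress replicates 4 and 5, where 2838 of all probe sets were higher and 600 lower, it was 23 (15 higher and 8 lower). Quantile normalization gave 1 higher and 5 lower, and centring the array medians 2 higher and 4 lower. A block for the replicate number, in the WT arrays alone, gave 11.

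Between KO stress and WT stress 10 of the 110 pathway genes passed the unadjusted level (9.09%, against 9.28% of all probe sets), 8 higher and 2 lower. Of all 28767 probe sets, 878 were higher and 1792 lower at this level. All 5 measured alpha subunits of Gi and Go, which restrain cyclases, had a positive difference (median 0.36), and 3 of them passed. Without the arrays that correlated least with the others, WT con replicate 1 and WT stress replicate 1, the median was 0.19 and 1 passed. Of all probe sets 41.3% had a positive difference here. Several marker lists moved the same way, with positive differences in 10 of 11 hypothalamic and medial amygdala markers (median 0.42), 10 of 10 of meninges and fibroblasts (0.48), 10 of 10 of motile cilia and ependyma (0.48), 9 of 10 of choroid plexus (0.56) and 9 of 10 of astrocytes (0.16). At the unadjusted level 2, 1, 2, 0 and 2 of them passed. Other lists went the opposite way, with negative differences in 8 of 10 markers of pallial excitatory neurons and 12 of 12 of dentate gyrus granule cells. The median was -0.38 in both, and 1 and 2 of these passed. The part of any of these cell types in the G protein values was not tested. Gnai2 was higher by 0.36 ± 0.12 (10.99 ± 0.13 against 10.63 ± 0.34, SD), Gnai1 by 0.44 ± 0.18, and Gnaz, named after its value was seen, by 0.36 ± 0.16. The gamma subunits Gng12 (0.30 ± 0.10), Gng4 (0.56 ± 0.21) and Gng3 (0.46 ± 0.18, also named after its value was seen) were higher as well. Adcyap1r1 (0.27 ± 0.10) and Vipr1 (-0.51 ± 0.20) differed in the opposite direction from their difference between WT stress and WT con, with the WT stress arrays shared by both comparisons. Sstr1, a Gi-coupled somatostatin receptor, differed by 0.32 ± 0.14 and the phosphodiesterase Pde7a by -0.24 ± 0.10. The smallest adjusted p of these genes was 0.53. Leaving out WT stress replicate 1 gave a count of 4, leaving out replicate 5 of that group gave 16, and leaving out its replicates 4 and 5 together gave 21. Without both, 1959 of all 28767 probe sets were higher and 4690 lower, against 878 and 1792 with all arrays.

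Most phosphodiesterases that degrade cAMP had a positive stress difference in WT mice and a negative one in KO mice. In WT mice 14 of 16 had a positive stress difference (median 0.11), with 0 past the unadjusted level, where 62.8% of all probe sets were positive. In KO mice 14 of 16 had a negative difference (median -0.12), with 1 past the level, where 48.5% of all probe sets were positive. The interaction was negative in 13 of 16 (median -0.26 against -0.03 for all probe sets), and 3 passed the unadjusted level. These comparisons share their control arrays with KO con against WT con, where 14 of 16 phosphodiesterases were positive. They are thus not independent of that comparison. With quantile normalization the positive counts were 12 of 16 in WT and 3 of 16 in KO, and with array medians centred 11 of 16 and 0 of 16. The median was 0.29 in WT with 5 past the level, and -0.43 in the interaction with 5 past it, when WT stress replicates 4 and 5 were left out. Of all 28767 probe sets, 2838 were then higher and 600 lower for stress in WT, against 859 and 160 with all arrays. In the interaction 638 were then higher and 1806 lower, against 202 and 522. Markers of striatal and central amygdala neurons had medians close to those of the phosphodiesterases, 0.12 for stress in WT, -0.11 for stress in KO and -0.28 in the interaction, with 0 of 13 past the level in each. The marker median was 0.28 between KO con and WT con, where the phosphodiesterases had 0.24. Between KO stress and WT stress the signs were opposite, at 0.17 for the markers (8 of 13 positive) and -0.07 for the phosphodiesterases (5 of 16 positive). Of the markers, 8 of 13 were positive for stress in WT, 4 of 13 for stress in KO and 5 of 13 in the interaction. The part of these neurons in the phosphodiesterase values was not tested. Those that passed in the interaction were Pde4a (-0.22 ± 0.08), Pde1a (-0.58 ± 0.24) and Pde7a (-0.32 ± 0.15), chosen for naming in the interaction after their values were seen. Pde4a, a cAMP-specific enzyme, was the single pathway gene of the 110 past the level between KO stress and KO con (-0.16 ± 0.05, unadjusted p 0.00706 and adjusted p 1.0 in limma, 0.909% against 1.13% of all probe sets). Between KO con and WT con 4 of 110 passed (3.64%, against 3.57%), all higher in KO: Pde1a (0.39 ± 0.17), Pde4a (0.11 ± 0.05), the gamma subunit Gng10 (0.29 ± 0.13) and Htr5a, the Gi-coupled serotonin receptor 5A. Of all probe sets, 547 were higher and 479 lower here. Each difference named for Pde4a uses the KO con arrays. Htr5a read 7.22 ± 0.07 in KO con and 6.98 ± 0.08 in WT con (SD, n = 5), with all KO con arrays above all WT con arrays. Groups did not overlap in 0.855% of all probe sets in this comparison. The count of 4 pathway genes was 1 after quantile normalization, 1 without WT con replicate 5 and 10 without WT con replicate 1. In the interaction, 8 of 110 genes passed (7.27%, against 2.52%), 3 higher and 5 lower, or 5 higher and 4 lower with quantile normalization.

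The remaining groups of the pathway gave no call or few. The measured Golf subunit Gnal differed by -0.06 ± 0.16 between WT stress and WT con. Among 9 A-kinase anchoring proteins, 8 members of the CREB family with its coactivators, 2 exchange factors, 2 calmodulin genes and 4 genes of the soluble cyclase and cyclase-associated proteins, 0 passed in any of the 4 comparisons of 2 groups, in which 1.13% to 9.28% of all probe sets passed. Averaged over conditions, 11 of 110 pathway genes were higher in KO than in WT at the unadjusted level and 0 were lower (10%, against 12% of all probe sets in both directions). With quantile normalization 7 were higher and 1 was lower. Of all 28767 probe sets, 1354 were higher and 2111 lower, or 1355 and 1485 with quantile normalization. Averaged over genotypes, 0 of 110 differed with stress at that level, which 1.67% of all probe sets passed.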

How the data were processed

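RNA of 20 amygdala samples was hybridised to Affymetrix Mouse Gene 1.0 ST arrays, 1 mouse per array. The authors summarised the probes with ExonRMA in ArrayAssist, stabilised the variance and took logs, and the deposited values are log2 signals. No scanner files were used here. Groups were taken from the sample labels, and 0 value columns were left unmapped. The number of arrays, not read depth, limits the precision.

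Probe sets were named through the platform annotation (21776 of 28767 with 1 symbol, 1618 with several, 5373 with none). Group means of all 28767 probe sets were fitted with limma 3.58.1 in R 4.3.3 (lmFit, eBayes, Benjamini-Hochberg adjustment over all probe sets), with no filter, and differences of 5 against 5 arrays were also tested with an exact two-sided permutation test. limma had 16 residual and 2.1 prior degrees of freedom. The 4 groups share 1 estimate of the spread. The study's methods used unpaired t-tests with a fold of 1.5, which were run as alternatives. Correlations used 100000 permutations within groups in Python 3.11.15 with numpy 2.4.6 and scipy 1.17.1, and figures matplotlib 3.10.9. The fit was tested on simulated data with known changes. Promoter sequences and gene positions are those of RefSeq on GRCm38.p6.

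The members, the pathway and marker lists and the naming rule were chosen with earlier results of these data known. Named were all members, Slc6a4, up to 2 genes of each pathway list with the smallest unadjusted p under 0.05 in each comparison of 2 groups, and the 2 most similar probe sets of each member. The dentate gyrus list was added after the values were seen. Of 260 listed genes 243 were measured. A marker score is the mean over the list of log2 values minus the mean of each gene over all arrays.

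Whether replicate numbers pair the arrays was checked by correlating deviations from group means. Same-numbered arrays of WT con and WT stress correlated at 0.162 to 0.42 (5 of 5 over 0.1), and the other pairs of groups did not all pass 0.1. With the number as a block, Adcy9 between WT stress and WT con kept an unadjusted p of 0.00459 in limma over all groups and 0.0228 in the WT groups alone. No source says what a number stands for, or that arrays of a group differ by anything but the mouse. Alternatives were quantile normalization, centred medians, a minimum mean log2 value of 6, array weights, t-tests, the block and leaving out arrays.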

Additional observations from a re-analysis of the deposited data

Results flagged for a closer look

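Adcy2 in KO con replicate 5 was 9.30, while the other 4 arrays of KO con lay between 9.60 and 9.66. The gap made up 0.842 of the range of the group, above the critical value of 0.71 of Dixon's test for 5 arrays, a test that chance passes in about 1 of 20 groups. With 9 members in each of 4 groups, a pass by chance somewhere among them is not unusual.

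The stress difference of Adcy9 differed between genotypes by -0.38 ± 0.14 (SE, KO minus WT), with an unadjusted p of 0.014 and an adjusted p of 1.0 in limma. WT stress replicates 4 and 5 carry the highest Adcy9 and the highest dentate gyrus scores, and without them the value was -0.20 with an unadjusted p of 0.0422 in limma. In that setting 638 of all 28767 probe sets were higher and 1806 lower in the interaction, against 202 and 522 with all arrays. The part of the tissue composition in this difference of Adcy9 was not tested.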

How the results depend on the processing

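No member passed the adjusted level in any comparison, and the counts below are at the unadjusted level of 0.05. Without WT stress replicates 4 and 5, an alternative chosen after seeing the data, 1 correlation between members passed in place of 4, and members counted 0 between WT stress and WT con and 0 between KO stress and WT stress. Without the arrays that correlated least, WT con replicate 1 and WT stress replicate 1, members counted 2 between WT stress and WT con, 1 between KO con and WT con and 2 in the interaction. Of all 28767 probe sets, 865 were then higher and 577 lower between WT stress and WT con (859 and 160 in the main fit). Between KO con and WT con 870 and 1322 were so (547 and 479), and in the interaction 651 and 714 (202 and 522). With array weights members counted 1 between KO con and WT con and 2 in the interaction. All probe sets then gave 1347 higher and 1465 lower, and 450 higher and 869 lower. Leaving out 1 array gave 1 to 2 members between WT stress and WT con, 0 to 1 between KO con and WT con, 1 to 2 between KO stress and WT stress, 1 to 2 in the interaction and 0 to 1 in each averaged comparison. The replicate block changed no member call.

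Pathway genes between WT stress and WT con (7) counted 4 with the methods' t-test, 11 with array weights, 11 with the replicate block in the WT groups, 14 without the least correlated arrays and 23 without WT stress replicates 4 and 5, and 1 to 20 leaving out 1 array. Between KO stress and KO con (1) they counted 2 with the t-test, the fit of 2 groups, centred medians, the minimum mean or array weights, 3 without WT stress replicates 4 and 5, and 1 to 3 leaving out 1 array. Between KO con and WT con (4) they counted 1 with quantile normalization, 14 with array weights, 13 without the least correlated arrays, and 1 to 10 leaving out 1 array. Between KO stress and WT stress (10) they counted 6, 5 and 21 with array weights, without the least correlated arrays and without WT stress replicates 4 and 5, and 4 to 16 leaving out 1 array. The interaction (8) gave 13, 15 and 15 under these settings and 4 to 18 leaving out 1 array. Stress averaged over genotypes (0) gave 1 with quantile normalization or centred medians, 2 under those same 3 settings and 0 to 2 leaving out 1 array. KO averaged over conditions (11) gave 5 with array weights, 6 without the least correlated arrays and 6 to 12 leaving out 1 array. Calls over all 28767 probe sets moved with these settings too. Without WT stress replicates 4 and 5 the interaction gave 638 higher and 1806 lower, against 202 and 522 in the main fit. Without the least correlated arrays it gave 651 and 714, and with array weights 450 and 869. Between KO con and WT con (547 and 479 in the main fit) those settings gave 870 and 1322, and 1347 and 1465. Between WT stress and WT con (859 and 160) they gave 865 and 577, and 863 and 270. Without WT stress replicates 4 and 5 that comparison gave 2838 and 600. Between KO stress and WT stress the same setting gave 1959 and 4690 (878 and 1792 in the main fit). Array weights gave 446 and 1306 there, and leaving out the least correlated arrays 525 and 940.

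Signs turned only for member differences that had not passed. Without WT stress replicates 4 and 5 this held for Adcy1 (-0.19), Adcy2 (-0.02) and Adcy7 (0.07) between WT stress and WT con, for Adcy5 (-0.25) and Adcy7 (-0.14) between KO stress and WT stress, and for Adcy1 (0.16) and Adcy7 (-0.08) in the interaction. With array weights it held for Adcy3 (0.02) and Adcy8 (0.08) between WT stress and WT con, Adcy1 (0.09) and Adcy7 (0.03) between KO stress and KO con, and Adcy4 (0.11) and Adcy8 (-0.15) between KO stress and WT stress. Centred medians turned Adcy2 between KO con and WT con (0.02), Adcy4 between KO stress and WT stress (0.02) and Adcy5 between WT stress and WT con (-0.02), and quantile normalization Adcy6 between KO stress and WT stress (-0.02). Without the least correlated arrays Adcy3 between WT stress and WT con (0.04) and Adcy4 (0.11) and Adcy8 (-0.12) between KO stress and WT stress turned.

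Leaving out 1 array, the turned values between WT stress and WT con ranged from -0.01 to 0.14 for Adcy2, -0.11 to 0.00 for Adcy3, -0.16 to 0.01 for Adcy4, -0.15 to 0.28 for Adcy5, -0.20 to 0.04 for Adcy6 and -0.24 to 0.09 for Adcy8. Between KO stress and KO con they were -0.19 to 0.16 for Adcy1, -0.24 to 0.06 for Adcy5 and -0.11 to 0.05 for Adcy7, and between KO con and WT con -0.08 to 0.07 for Adcy2 and -0.13 to 0.01 for Adcy7. Between KO stress and WT stress they were -0.01 to 0.17 for Adcy3, -0.07 to 0.11 for Adcy4, -0.07 to 0.23 for Adcy5, -0.07 to 0.07 for Adcy6, -0.08 to 0.09 for Adcy7 and -0.12 to 0.21 for Adcy8. In the interaction they were -0.15 to 0.03 for Adcy3, -0.37 to 0.05 for Adcy5, -0.02 to 0.15 for Adcy7 and -0.33 to 0.00 for Adcy8. The cause was not tested for any of these.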
